A study of Mus musculus with 8 samples.

Results

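The unfolded protein response genes described here are 10 chaperones and quality-control factors of the endoplasmic reticulum (ER): *Hspa5*, *Hsp90b1*, *Calr*, *Dnajb9*, *Dnajc3*, *Sdf2l1*, *Pdia4*, *Herpud1*, *Edem1* and the transcription factor gene *Xbp1*. They were taken by name as targets of the ATF6 and XBP1 branches. The rule used no measured value, but the members were chosen with earlier results of these data known. All 10 were among the 11911 genes listed in the count table, and all 10 were among the 11317 genes with enough counts to be tested. The question was whether these genes changed along with the amino acid response genes in induced regulatory T cells (iTregs) from mice with a *Foxp3*-driven deletion of *Tdrd3*, which encodes a transcriptional coregulator.

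Total RNA was sequenced from 8 iTreg cultures on a C57BL/6J background, 4 labelled WT from Foxp3YFP-Cre mice, called controls here, and 4 labelled KO from Tdrd3fl/fl/Foxp3YFP-Cre mice. Naïve CD4+ T cells from spleen had been cultured for 36 hours with antibodies to CD3 and CD28, TGF-β, anti-IFN-γ and anti-IL-4. Both genotypes carry the Foxp3YFP-Cre allele, in which Cre is made where *Foxp3* is transcribed. By this design a cell that had not switched on *Foxp3* should still hold an intact *Tdrd3* gene, but deletion per cell was not measured here. The methods name no sorting for YFP before RNA isolation and fewer biological replicates per genotype than there are libraries, and the age of these mice is not given in the sources used here.

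When proteins fail to fold in the ER, membrane sensors send signals to the nucleus. IRE1 splices the *Xbp1* mRNA so that it encodes an active transcription factor, and ATF6 is cut in the Golgi to release another; together they switch on ER chaperones, disulfide isomerases and the machinery of ER-associated degradation (ERAD), which exports misfolded proteins to the proteasome. The remaining sensor, PERK, phosphorylates eIF2α and raises translation of ATF4, a factor that the amino acid sensor GCN2 also raises without any involvement of the ER. ATF4 targets such as *Asns* and *Ddit3* can therefore be induced by either route, whereas the ER chaperones are mainly targets of ATF6 and XBP1.

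ATF6 and XBP1 act through short elements close to the transcription start. The ER stress element, ERSE, has the letters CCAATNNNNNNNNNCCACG, and its relative ERSE-II has ATTGGNCCACG. Both were searched as exact letters on both strands in the 300 bases before the start of each gene's canonical GENCODE transcript. The stretches that hold a match are shown because they are what the shared regulation of these genes is known for, 5′ to 3′ on the strand of the gene, with the fixed letters of each element in capitals and read from the GRCm39 genome: *Hspa5* from chr2:34662031-34662061, *Hsp90b1* from chr10:86541391-86541526 on the minus strand, *Calr* from chr8:85573698-85573728 on the minus strand, *Dnajc3* from chr14:119175233-119175263 and *Herpud1* from chr8:95112999-95113021.
Hspa5: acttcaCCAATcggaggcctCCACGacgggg
Hsp90b1: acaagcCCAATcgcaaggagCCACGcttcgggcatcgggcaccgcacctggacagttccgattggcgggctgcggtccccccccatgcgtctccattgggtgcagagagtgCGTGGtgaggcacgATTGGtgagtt
Calr: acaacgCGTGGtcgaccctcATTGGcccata
Dnajc3: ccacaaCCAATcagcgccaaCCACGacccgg
Herpud1: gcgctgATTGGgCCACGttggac

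ERSE was present in 4 of the 10 promoters, those of *Hspa5*, *Hsp90b1*, *Calr* and *Dnajc3*, and in 17 of all 11316 promoters examined, which is 0.15%. *Hsp90b1* carried it once on each strand, from −142 to −124 and from −37 to −19 relative to the start, and *Calr* carried it on the opposite strand from −55 to −37. ERSE-II was present in *Herpud1* and in 7 of all promoters, 0.0619%. *Xbp1*, *Dnajb9*, *Sdf2l1*, *Pdia4* and *Edem1* had no exact match to either element in this window. The XBP1-binding UPRE, searched as TGACGTGG, was in none of the 10 and in 86 of all promoters, 0.76%. An exact match to TGATGCAA, the letters searched for the ATF4-binding element CARE, was in *Herpud1* alone among the 10, from −92 to −85. It was also in 3 of 24 amino acid response genes, in 3 of 12 genes of the PERK arm and in 0.654% of all promoters. *Asns*, *Cth* and *Trib3* had no such match. A search for fixed letters misses elements that differ by a base, so these are not counts of all such elements. Of 30 other ER folding and ERAD genes, 5 carried ERSE and 2 carried ERSE-II. No gene of the amino acid response and PERK lists carried either. A letter match is a description of the promoter and does not show that a factor binds there.

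**Figure D1:**
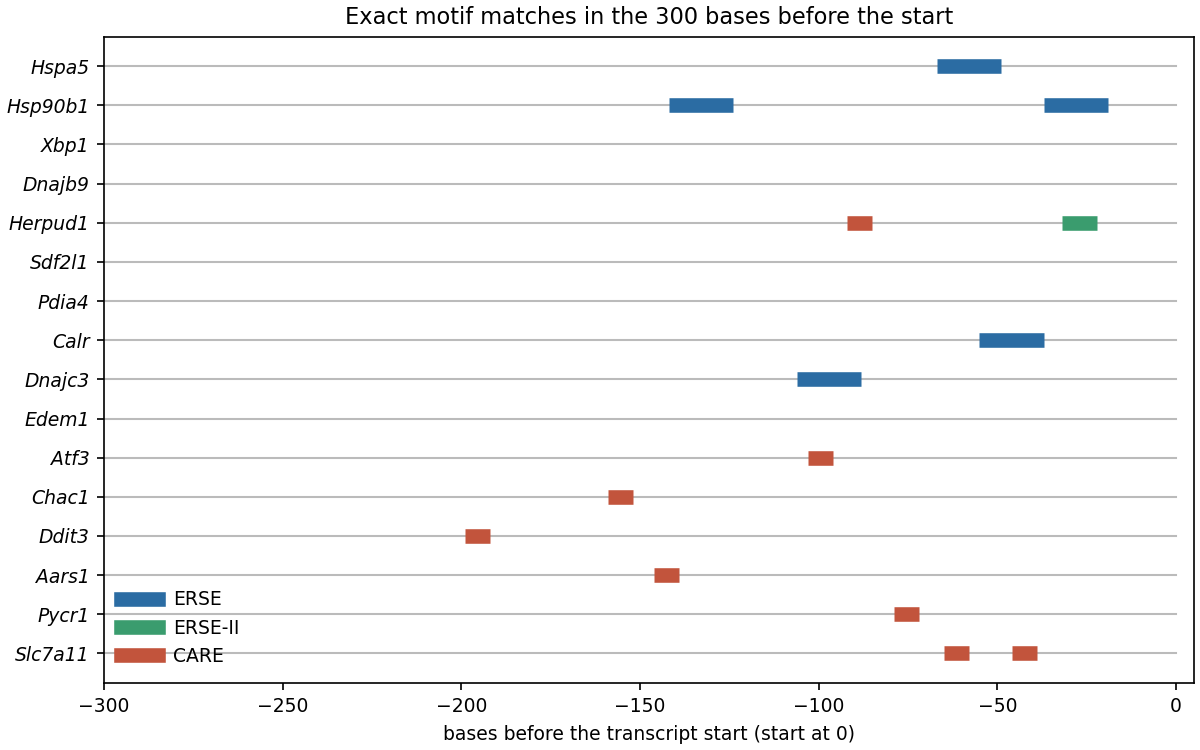
Positions of exact element matches in the 300 bases before the transcript start (x axis, bases, with the start at 0) for the 10 unfolded protein response genes and for the 6 genes of the amino acid response and PERK lists with a CARE match. Blue bars are ERSE, green ERSE-II and red CARE. ERSE and ERSE-II lie in the upper block of genes, where *Herpud1* alone also has an exact match to the CARE letters.

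The counts of listed genes summed to 13258239 to 16001676 per library. Values are given below as CPM, counts scaled to a common library total after TMM normalization, where 3 counts correspond to 0.188 to 0.226 CPM. The library labelled control replicate 3 went against its label in *Tdrd3*. Its *Tdrd3* level was 9.95 CPM, below the 10.7 to 13.7 CPM of the Tdrd3fl/fl/Foxp3YFP-Cre libraries and well below the other 3 controls at 15.1 to 18.8 CPM. Over all 8 libraries the *Tdrd3* log2 fold change was −0.35 (adjusted p = 0.496 in the quasi-likelihood test of edgeR). In control replicate 3 *Foxp3* had 107 CPM, just above the 77.2 to 105 CPM of the Tdrd3fl/fl/Foxp3YFP-Cre libraries. Control replicate 4, at 93.8 CPM, lay inside that range, so *Foxp3* does not separate the labels library by library. In control replicate 3 *Asns* had 129 CPM against 143 to 183 CPM in the Tdrd3fl/fl/Foxp3YFP-Cre libraries, and *Trib3* 41.2 CPM against 52.3 to 54.9. *Asns* and *Trib3* were found to differ between genotypes with this library counted as a control, so their levels do not check its label. The same library held 11.3 CPM of *Cd8a*, a marker of CD8 T cells, against 0.436 to 1.37 CPM in the other 7. Log2 fold changes of the unfolded protein response genes are therefore also given without it. All 7 T cell markers were present and summed to 3469 to 3715 CPM in controls and 3227 to 3475 CPM in Tdrd3fl/fl/Foxp3YFP-Cre iTregs, and 3 of them, *Cd28*, *Il2ra* and *Foxp3*, were lower at an unadjusted p below 0.05, as 4.91% of all tested genes were. B and plasma cell markers, which matter here because plasma cells are rich in ER chaperones, had 4 of 11 genes listed and summed to 3.56 to 6.80 and 3.12 to 5.26 CPM, with *Jchain*, *Mzb1*, *Ms4a1*, *Ighm* and *Igkc* outside the listed genes. CD8 T and NK cell markers had 4 of 7 genes listed and summed to 11.0 to 25.0 and 9.52 to 12.9 CPM, and 2 of the 4, *Cd8a* and *Cd8b1*, were lower in Tdrd3fl/fl/Foxp3YFP-Cre iTregs at an unadjusted p below 0.05. The library labelled control replicate 3 held the highest level of both. The part of these T cell and CD8 markers in the results below was not tested. Of the myeloid markers 2 of 11 were listed and reached at most 2.11 CPM in any library, and of the erythroid markers 1 of 8 was listed and reached at most 0.892 CPM. *Foxp3* itself had 110 ± 12.5 CPM in controls and 88.4 ± 13.3 in Tdrd3fl/fl/Foxp3YFP-Cre iTregs (SD, n = 4 each, adjusted p = 0.152 in the quasi-likelihood test of edgeR, adjusted by Benjamini-Hochberg). In bulk RNA, fewer cells of a type and less RNA per cell cannot be told apart.

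The iTregs expressed all 10 genes in every library. Per kilobase of canonical transcript within the deposited gene span, *Calr* was the most abundant in controls at 240 ± 14.9 CPM per kilobase, followed by *Hsp90b1* at 200.0 ± 12.5, *Hspa5* at 145 ± 7.26 and *Xbp1* at 106 ± 5.09 (SD, n = 4). *Pdia4* had 66.7 ± 3.51 CPM per kilobase, *Sdf2l1* 51.6 ± 2.52, *Herpud1* 51.4 ± 1.77, *Edem1* 37.6 ± 0.974, *Dnajc3* 25.3 ± 1.29 and *Dnajb9* 4.43 ± 0.50. *Sdf2l1* and *Herpud1* did not differ beyond their spread, and no other neighbours in this order overlapped in any control library. These lengths come from 1 transcript per gene, so the order depends on which isoform the cells use. The 3 most abundant are the luminal chaperones that hold nascent secretory proteins, and the least abundant is a J-domain co-chaperone.

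None of the 10 genes differed between genotypes at a Benjamini-Hochberg adjusted p below 0.05 by the quasi-likelihood test of edgeR fitted across 11317 genes, where 0.265% of tested genes did. The count was 0 also with DESeq2 and with limma voom. At an unadjusted p below 0.05, 0 of 10 were higher in Tdrd3fl/fl/Foxp3YFP-Cre iTregs, where 4.38% of all tested genes were, and 1 of 10, *Dnajc3*, was lower, where 4.91% were. No member passed an unadjusted p below 0.05 together with a 1.2-fold change, as 3.47% of tested genes did, and for no member did the libraries of the genotypes separate without overlap, as they did for 4.89% of tested genes. Of the estimates 8 lay below 0 and 2 above, with a median log2 fold change of −0.03 against 0.0013 for all tested genes. The intervals were narrow: for 9 of the 10 genes the 95% confidence interval of the ratio between genotypes lay within 1.2-fold in either direction, the exception being *Dnajb9*. They describe whole cultures, for which the methods name no sorting for YFP, and not only cells that had deleted *Tdrd3*.

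**Figure D2:**
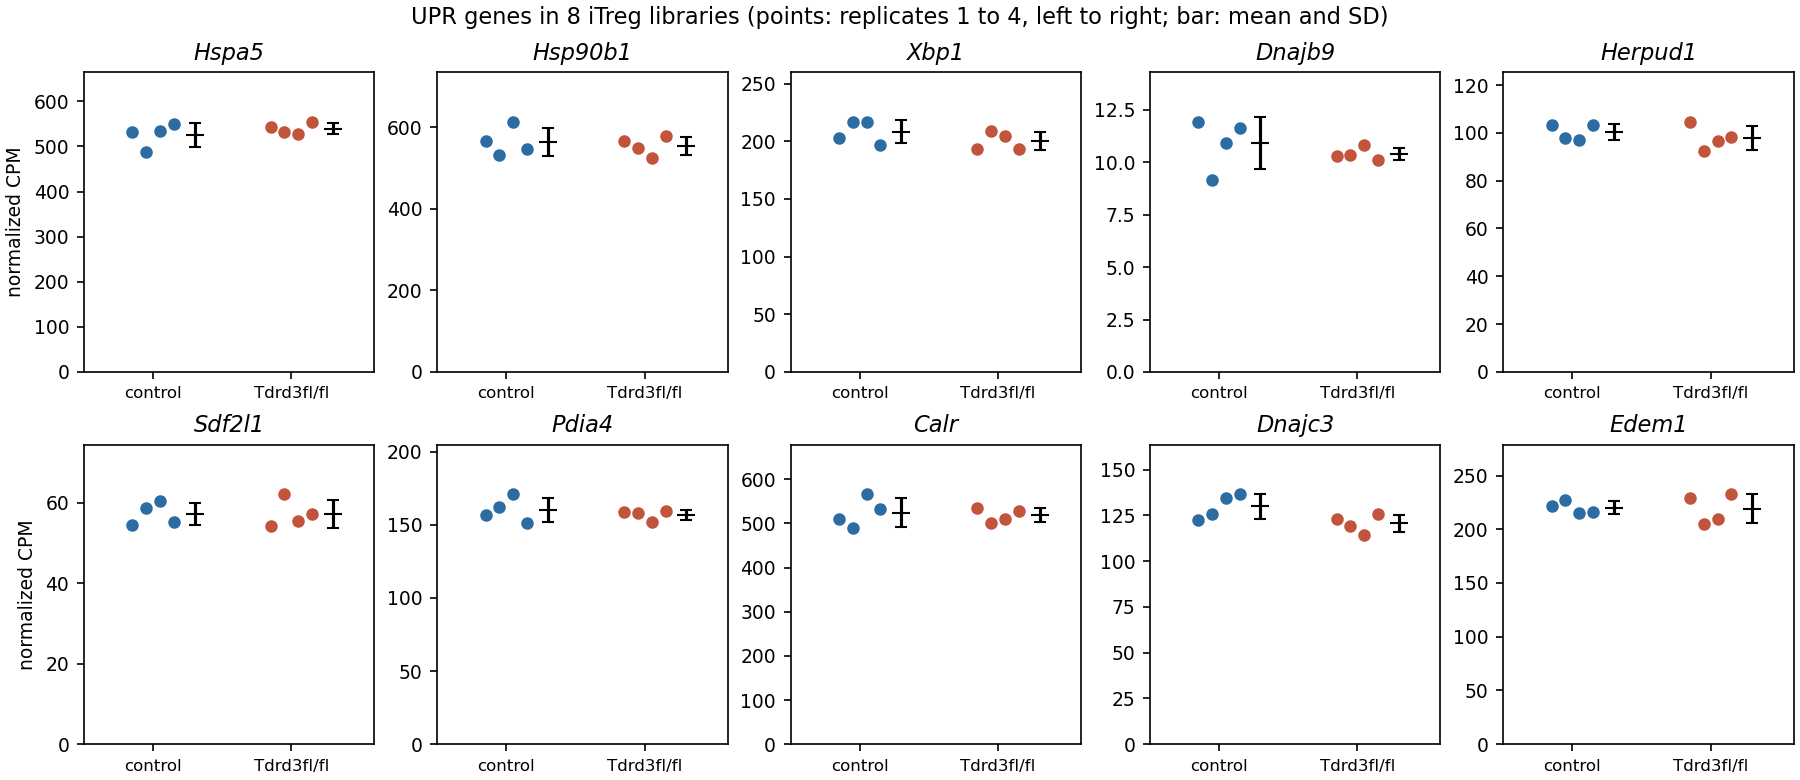
Normalized CPM (y axis, starting at 0) of the 10 genes in each of the 8 libraries, controls in blue and Tdrd3fl/fl/Foxp3YFP-Cre in red, with replicates 1 to 4 from left to right and the mean and SD (n = 4) as a bar beside them. The genotypes overlap in all 10 panels, and the library labelled control replicate 3 is the highest of the 8 for *Hsp90b1*, *Pdia4* and *Calr*.

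*Hspa5* encodes BiP, the HSP70 chaperone of the ER lumen, which also holds the sensors inactive until unfolded proteins draw it away, and it is the standard readout of the response. Its deposited gene span is chr2:34661982-34667559 (ENSMUSG00000026864) on the plus strand. That span begins before the canonical GENCODE start used in the promoter search, so it takes in the ERSE stretch shown above. The level of *Hspa5* was 532, 489, 533 and 551 CPM in the libraries labelled control replicates 1 to 4 and 544, 532, 527 and 554 CPM in Tdrd3fl/fl/Foxp3YFP-Cre replicates 1 to 4. The 4 Tdrd3fl/fl/Foxp3YFP-Cre libraries sat within the upper part of the control range or, for replicate 4, just above it. The means were 526 ± 26.4 and 539 ± 12.1 CPM (SD, n = 4), a ratio of 1.02 with a 95% confidence interval of 0.967 to 1.09. The log2 fold change of 0.04 had an adjusted p of 0.873 in edgeR's quasi-likelihood test. In the GENCODE annotation an exon of the canonical *Hspa5* transcript overlaps an annotated *Rabepk* exon on the opposite strand, tail to tail, by 1324 bases. In the deposited table *Rabepk* begins after *Hspa5* ends, and *Rabepk* itself was at 27.2 ± 3.67 and 25.9 ± 0.876 CPM.

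*Hsp90b1* encodes GRP94, the HSP90 of the ER, which folds integrins and Toll-like receptors, and lies at chr10:86526073-86541373 (ENSMUSG00000020048) on the minus strand. It had 567, 532, 612 and 546 CPM in the libraries labelled control and 565, 550, 524 and 578 CPM in Tdrd3fl/fl/Foxp3YFP-Cre iTregs. The highest value, 612, came from the library labelled control replicate 3, and the other 7 libraries lay between 524 and 578 CPM. The ratio of Tdrd3fl/fl/Foxp3YFP-Cre to control was 0.982 (95% confidence interval 0.920 to 1.05, adjusted p = 0.922 in the same edgeR test). Without the library labelled control replicate 3 the log2 fold change moved from −0.03 to 0.02.

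*Calr* encodes calreticulin, the lectin chaperone that binds glycoproteins and ER calcium, and lies at chr8:85568479-85573563 (ENSMUSG00000003814) on the minus strand. It had 510, 490, 566 and 532 CPM in the libraries labelled control and 534, 501, 510 and 528 CPM in Tdrd3fl/fl/Foxp3YFP-Cre iTregs. All 4 Tdrd3fl/fl/Foxp3YFP-Cre values fell inside the control range. The ratio was 0.989 (0.928 to 1.05, adjusted p = 0.949 in edgeR's quasi-likelihood test), and without the library labelled control replicate 3 the log2 fold change moved from −0.02 to 0.02.

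The co-chaperones assist BiP. *Dnajb9* encodes ERdj4, a J-domain protein that restrains IRE1 and is a sensitive XBP1 target, and lies at chr12:44252342-44257109 (ENSMUSG00000014905) on the minus strand. It had 11.9, 9.17, 10.9 and 11.6 CPM in the libraries labelled control and 10.3, 10.3, 10.8 and 10.1 CPM in Tdrd3fl/fl/Foxp3YFP-Cre iTregs, from 126 to 174 counts per library. The 4 Tdrd3fl/fl/Foxp3YFP-Cre values were closer together than the controls and lay inside their range. The interval was the widest of the 10, a ratio of 0.952 with a 95% confidence interval of 0.803 to 1.13 (adjusted p = 0.919 in edgeR's quasi-likelihood test). Ratios across that interval are compatible with these libraries, and what sets its width was not tested.

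*Dnajc3* encodes p58IPK, a J-domain co-chaperone of BiP that was first described as an inhibitor of PERK, and lies at chr14:119175388-119219109 (ENSMUSG00000022136) on the plus strand. It had 123, 126, 135 and 136 CPM in the libraries labelled control and 123, 119, 115 and 126 CPM in Tdrd3fl/fl/Foxp3YFP-Cre iTregs. Control replicate 1 lay within the Tdrd3fl/fl/Foxp3YFP-Cre range, and the other 3 libraries labelled control lay above it, replicate 2 by less than the rounding of these values. The means were 130 ± 6.61 and 121 ± 4.89 CPM (SD, n = 4), a ratio of 0.929 with a 95% confidence interval of 0.866 to 0.996. This was the largest difference among the 10, at a log2 fold change of −0.11, and 30.3% of tested genes had a larger one. Its unadjusted p of 0.0396 became 0.499 after Benjamini-Hochberg adjustment in edgeR's quasi-likelihood test, and without the library labelled control replicate 3 the unadjusted p was 0.0959 at a log2 fold change of −0.09.

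*Sdf2l1*, which keeps ERdj3 and its clients soluble, lies at chr16:16948002-16950247 (ENSMUSG00000022769) on the minus strand. It had 54.6, 58.6, 60.5 and 55.2 CPM in the libraries labelled control and 54.2, 62.1, 55.4 and 57.1 CPM in Tdrd3fl/fl/Foxp3YFP-Cre iTregs. Both the highest and the lowest value came from Tdrd3fl/fl/Foxp3YFP-Cre libraries, and both genotype means were 57.2 CPM. The ratio was 1.00 with a 95% confidence interval of 0.916 to 1.09 (adjusted p = 0.997 in edgeR's quasi-likelihood test).

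*Pdia4*, also called ERp72, is a disulfide isomerase that forms and rearranges disulfide bonds, and lies at chr6:47773075-47790364 (ENSMUSG00000025823) on the minus strand. It had 157, 162, 171 and 151 CPM in the libraries labelled control and 158, 158, 152 and 159 CPM in Tdrd3fl/fl/Foxp3YFP-Cre iTregs. Every Tdrd3fl/fl/Foxp3YFP-Cre value lay between the lowest and the highest control. The ratio was 0.980 (0.919 to 1.05, adjusted p = 0.914 in edgeR's quasi-likelihood test), and the log2 fold change moved from −0.03 to 0.0042 without the library labelled control replicate 3.

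The ERAD factors behaved alike in overlapping between genotypes. *Herpud1* encodes HERP, which organizes the HRD1 ubiquitin ligase, and lies at chr8:95113066-95122005 (ENSMUSG00000031770) on the plus strand. It had 103, 97.7, 97.1 and 103 CPM in the libraries labelled control and 104, 92.5, 96.8 and 98.1 CPM in Tdrd3fl/fl/Foxp3YFP-Cre iTregs, with both extremes in Tdrd3fl/fl/Foxp3YFP-Cre libraries. *Herpud1* is the member whose promoter held exact matches to both ERSE-II and the CARE letters. Its ratio was 0.975 (0.907 to 1.05, adjusted p = 0.898 in edgeR's quasi-likelihood test). *Edem1*, which trims mannose from glycoproteins bound for degradation, lies at chr6:108805602-108836317 (ENSMUSG00000030104) on the plus strand. It had 222, 228, 215 and 216 CPM in the libraries labelled control and 229, 205, 210 and 232 CPM in Tdrd3fl/fl/Foxp3YFP-Cre iTregs. The Tdrd3fl/fl/Foxp3YFP-Cre libraries spread to both sides of the controls, and the ratio was 0.995 (0.931 to 1.06, adjusted p = 0.974).

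*Xbp1* is both the substrate of IRE1 and a target of ATF6, and lies at chr11:5470659-5475893 (ENSMUSG00000020484) on the plus strand. It had 203, 217, 216 and 197 CPM in the libraries labelled control and 194, 209, 204 and 193 CPM in Tdrd3fl/fl/Foxp3YFP-Cre iTregs. Tdrd3fl/fl/Foxp3YFP-Cre replicates 1 and 4 lay below every control and the other 2 inside their range. The means were 208 ± 10.0 and 200.0 ± 7.86 CPM (SD, n = 4), and the ratio was 0.961 (0.900 to 1.03, adjusted p = 0.796 in edgeR's quasi-likelihood test). Counts per gene do not separate spliced from unspliced *Xbp1*, and cleavage of ATF6 leaves no trace in its mRNA, so activity of either sensor was seen here only through the targets.

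The genes varied little from library to library. The median coefficient of variation of the 10 was 5.05% in controls and 3.99% in Tdrd3fl/fl/Foxp3YFP-Cre iTregs, beside 6.02% and 5.33% for the 8448 tested genes whose control mean lay in the same CPM range. That range ran from 10.9 CPM for *Dnajb9* to 564 CPM for *Hsp90b1*. Abundance was not matched gene by gene, so the lower variation is not shown to be a trait of the 10. These 10 genes did not move as a block. Over the 8 libraries the Pearson correlation of log2 CPM with *Hspa5* ran from −0.766 for *Xbp1* to 0.608 for *Calr*, and the median over all tested genes was −0.003. The 5 tested genes outside the 10 that followed *Hspa5* most closely were *Morf4l2* (r = 0.972), *Ltv1* (0.966), *Nptn* (0.965), *Tmem39a* (0.950) and *Rock2* (0.948), and *Calr* ranked 1009 among all tested genes. These correlations describe the same 8 libraries that give the genotype comparison. The library labelled control replicate 3 had the highest value for 3 of the 10 genes, all abundant luminal proteins, and the highest mean over the 10. Without it, 0 of the 10 genes passed an unadjusted p below 0.05 in either direction and their median log2 fold change was −0.0071. The log2 fold changes without it were 0.04 for *Hspa5*, −0.04 for *Xbp1*, −0.05 for *Herpud1*, −0.07 for *Dnajb9*, 0.03 for *Sdf2l1* and −0.02 for *Edem1*, the same directions as with it, while *Hsp90b1*, *Calr* and *Pdia4* moved from below 0 to above it.

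Genes around the 10 were read from lists chosen by function. Of 30 other ER folding and ERAD genes, all were tested, 11 lay above 0 and 19 below, and the median log2 fold change was −0.03, the same as for the 10. By the quasi-likelihood test of edgeR, 0 had an adjusted p below 0.05. At an unadjusted p below 0.05, 2 were higher in Tdrd3fl/fl/Foxp3YFP-Cre iTregs and 0 lower, where 4.38% of all tested genes were higher and 4.91% lower. The smallest p belonged to *Ero1a*, the oxidase that recharges protein disulfide isomerase. Its level was 244, 278, 277 and 232 CPM in the libraries labelled control and 293, 302, 289 and 286 CPM in Tdrd3fl/fl/Foxp3YFP-Cre iTregs, with no overlap. The log2 fold change of *Ero1a* was 0.18 (unadjusted p = 0.00242, adjusted p = 0.164 in edgeR's test). The other, named after its value was seen, was *Selenok*, a small ER membrane selenoprotein, at 52.9 ± 3.22 and 58.3 ± 1.63 CPM (log2 fold change 0.14, adjusted p = 0.458 in the same test). In the other direction the smallest p was that of *Dnajb11*, the BiP co-chaperone ERdj3, at 84.1 ± 8.39 and 76.8 ± 4.56 CPM (log2 fold change −0.13, adjusted p = 0.568). That value was −0.06 without the library labelled control replicate 3, which had the highest *Dnajb11* level, 95.9 CPM.

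Of the 10 sensors and their processing enzymes, 5 lay above 0 and 5 below, and none passed an unadjusted p below 0.05. Of all tested genes 4.38% were higher and 4.91% lower at that threshold. *Ern1*, which encodes IRE1, had 16.8, 15.9, 11.9 and 18.2 CPM in the libraries labelled control and 17.9, 17.2, 18.6 and 14.5 CPM in Tdrd3fl/fl/Foxp3YFP-Cre iTregs (log2 fold change 0.12, adjusted p = 0.857 in edgeR's quasi-likelihood test). Without the library labelled control replicate 3, which held the lowest *Ern1* level at 11.9 CPM, the log2 fold change was 0.0056. *Eif2ak3*, which encodes PERK, had 40.2 ± 3.36 and 42.0 ± 3.11 CPM (log2 fold change 0.06), and *Atf6* had 41.8 ± 2.60 and 40.4 ± 2.17 CPM (log2 fold change −0.05). The smallest p in each direction belonged to *Crebzf*, a bZIP protein, at a log2 fold change of 0.10, and to *Traf2*, an adaptor that IRE1 recruits, at −0.10.

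The PERK-ATF4-CHOP genes, called the PERK arm here, and the amino acid response genes stood on the other side of 0. Both lists hold ATF4 targets, so the names of the lists do not tell the PERK route from the GCN2 route. Of 12 PERK-arm genes 10 lay above 0, with a median log2 fold change of 0.16, and of 24 amino acid response genes 22 lay above 0, with a median of 0.08, where 50.6% of all tested genes lay above 0. At an unadjusted p below 0.05, 5 of 12 and 7 of 24 were higher in Tdrd3fl/fl/Foxp3YFP-Cre iTregs, beside the 4.38% of all tested genes given above, and 0 of either list were lower. Both lists were drawn up with earlier results of these data known, and *Asns* and *Cth* had already been seen to differ, so neither count is independent evidence. The amino acid response median was 0.08 also without the library labelled control replicate 3.

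*Asns* encodes asparagine synthetase and is the textbook ATF4 target. It had 126, 126, 129 and 138 CPM in the libraries labelled control and 176, 143, 170 and 183 CPM in Tdrd3fl/fl/Foxp3YFP-Cre iTregs, with no overlap. Its log2 fold change was 0.38 with a standard error of 0.0618 and an adjusted p of 0.0110 in edgeR's quasi-likelihood test. It passed the adjusted threshold in 12 of 15 alternatives and did not without control replicate 1, Tdrd3fl/fl/Foxp3YFP-Cre replicate 1 or Tdrd3fl/fl/Foxp3YFP-Cre replicate 4, where the adjusted p reached 0.0845. *Cth*, cystathionine gamma-lyase, which makes cysteine, had 21.6 ± 1.55 and 30.9 ± 3.36 CPM (log2 fold change 0.51, adjusted p = 0.0147 in the same test, below 0.05 in 11 of 15 alternatives). That call was lost without the library labelled control replicate 3, where the adjusted p was 0.0566, and without control replicate 2 or Tdrd3fl/fl/Foxp3YFP-Cre replicate 1 or 4, where it reached 0.104. *Slc38a2*, an amino acid transporter, had the smallest p among the amino acid response genes below 0, at a log2 fold change of −0.06 (unadjusted p = 0.168).

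*Trib3*, a pseudokinase gene induced by ATF4 and CHOP, was the PERK-arm gene with an adjusted p below 0.05. It had 44.3, 46.8, 41.2 and 42.4 CPM in the libraries labelled control and 54.0, 52.3, 54.9 and 52.6 CPM in Tdrd3fl/fl/Foxp3YFP-Cre iTregs, with no overlap (log2 fold change 0.29, adjusted p = 0.0439 in edgeR's quasi-likelihood test). That call held in 8 of 15 alternatives. It was lost without the library labelled control replicate 3, where the adjusted p was 0.115, and without any other single library except Tdrd3fl/fl/Foxp3YFP-Cre replicate 2, with adjusted p values up to 0.199. *Ddit3* encodes CHOP and had 17.4, 18.1, 14.6 and 11.7 CPM in the libraries labelled control and 16.0, 17.3, 20.0 and 22.3 CPM in Tdrd3fl/fl/Foxp3YFP-Cre iTregs, which overlap (log2 fold change 0.29, unadjusted p = 0.0376, adjusted p = 0.499). *Atf4* itself, which is controlled largely by translation, had 411 ± 20.0 and 421 ± 12.7 CPM (log2 fold change 0.04), and *Chac1*, a glutathione-degrading ATF4 target, had 13.9 ± 1.67 and 13.4 ± 2.14 CPM (log2 fold change −0.05). *Atf3*, *Cebpb* and *Vegfa*, named after their values were seen, made up the 5 with *Trib3* and *Ddit3*, at log2 fold changes of 0.52, 0.35 and 0.26 and adjusted p values of 0.205, 0.152 and 0.0848 in edgeR's quasi-likelihood test. *Ppp1r15a*, the phosphatase subunit GADD34 that reverses PERK signaling, had the smallest p among the PERK-arm genes below 0, at a log2 fold change of −0.04 (unadjusted p = 0.647).

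**Figure D3:**
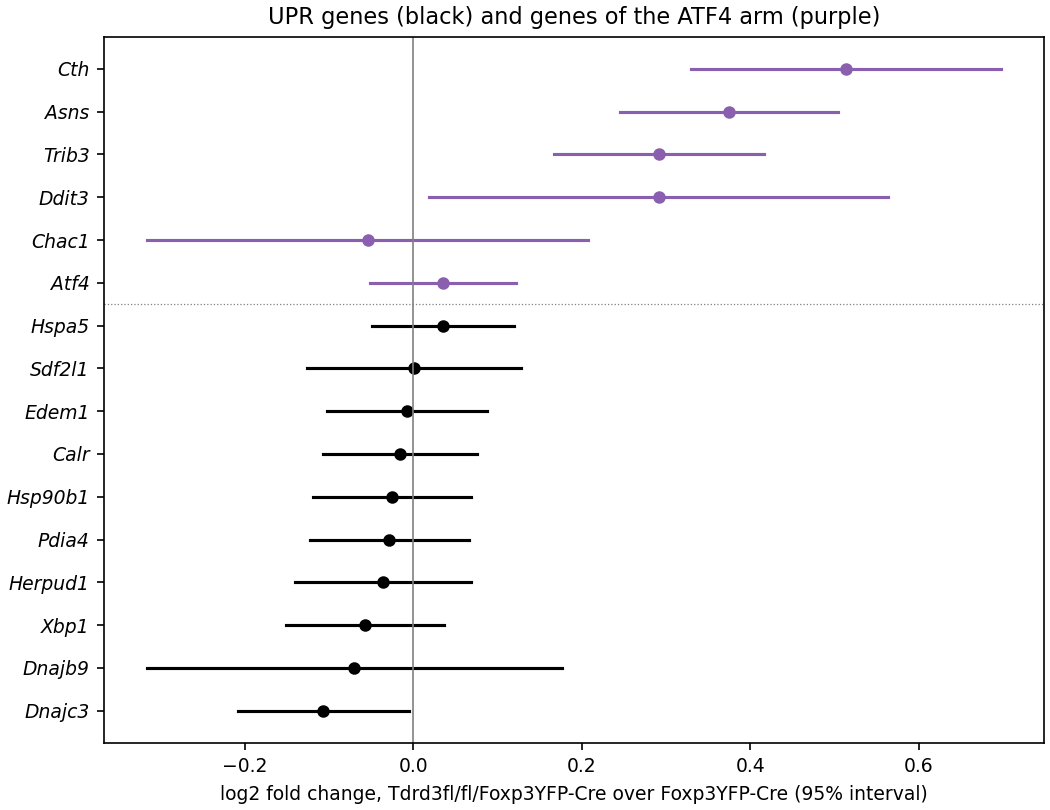
Fitted log2 fold change (x axis, Tdrd3fl/fl/Foxp3YFP-Cre over control) with its 95% confidence interval for the 10 unfolded protein response genes in black and 6 genes of the PERK and amino acid response lists in purple. Of the black intervals 9 cross 0 and that of *Dnajc3* ends just below it, while *Asns*, *Cth*, *Trib3* and *Ddit3* lie above 0 and *Atf4* and *Chac1* cross it. The purple genes are chosen genes and not whole lists, and *Asns* and *Cth* had already been seen to differ. The medians of the whole lists are 0.16 for the PERK arm and 0.08 for the amino acid response.

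Cytosolic heat shock genes, the response to unfolded protein outside the ER, were set beside them. Of 13 named, 12 were listed and tested, 10 lay above 0, and the median log2 fold change was 0.04. None passed an unadjusted p below 0.05, where 4.38% of all tested genes were higher and 4.91% lower. *Hsp90ab1*, the constitutive cytosolic HSP90, had the smallest p above 0, at a log2 fold change of 0.06 (unadjusted p = 0.0638), and *Dnaja1*, an HSP70 co-chaperone, had the smallest below it, at −0.03, which became 0.03 without the library labelled control replicate 3.

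**Figure D4:**
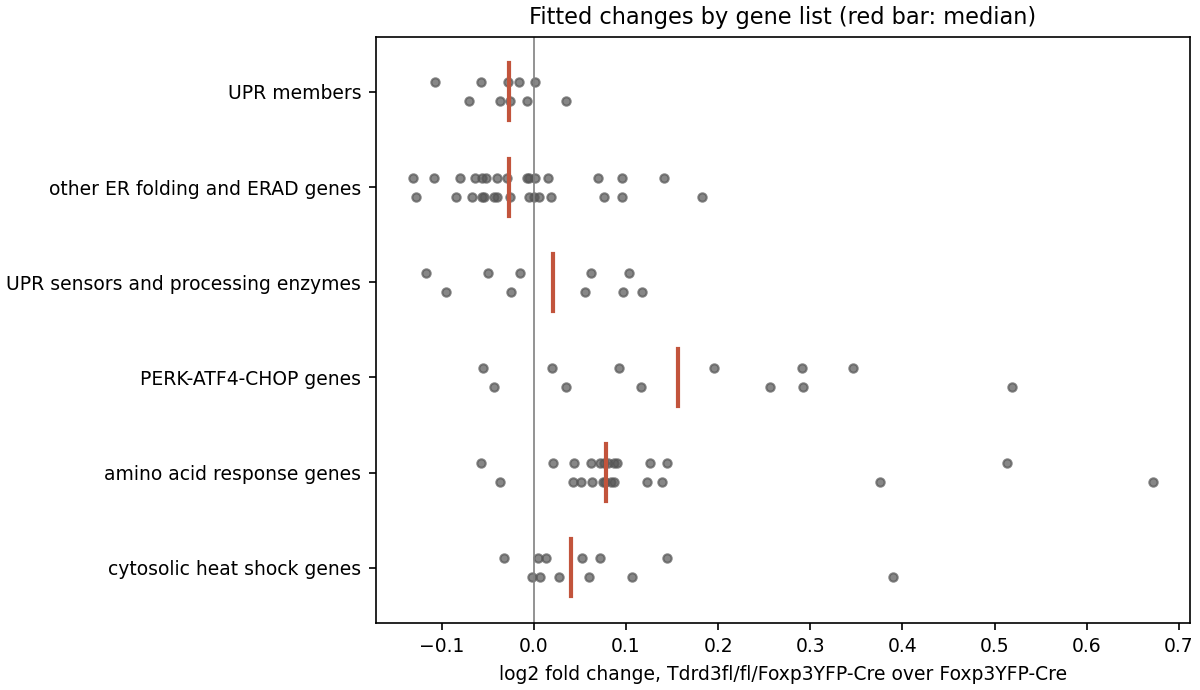
Fitted log2 fold change (x axis, Tdrd3fl/fl/Foxp3YFP-Cre over control) of every tested gene of 6 lists, each point a gene and each red bar the median of its list. The medians are −0.03 for the 10 unfolded protein response genes and for the 30 other ER genes, 0.16 for the PERK arm and 0.08 for the amino acid response.

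Library by library, the mean log2 difference from the 8-library mean over the 24 amino acid response genes was below 0 in all 4 libraries labelled control, from −0.1055 to −0.0068, and above 0 in all 4 Tdrd3fl/fl/Foxp3YFP-Cre libraries, from 0.0139 to 0.1024. The same mean over the 10 unfolded protein response genes ran from −0.0296 to 0.062 in libraries labelled control and from −0.0439 to 0.0064 in Tdrd3fl/fl/Foxp3YFP-Cre libraries, and the genotypes overlapped. The highest of these values, 0.062, was that of the library labelled control replicate 3. The ratio of *Asns* to *Hspa5* CPM was 0.236, 0.257, 0.242 and 0.250 in the libraries labelled control and 0.323, 0.268, 0.323 and 0.331 in Tdrd3fl/fl/Foxp3YFP-Cre replicates 1 to 4. Tdrd3fl/fl/Foxp3YFP-Cre replicate 2 lay closest to the controls on this ratio. The amino acid response list was drawn up with earlier results of these data known, and *Asns* had already been seen to differ. The split of the list's library means by genotype and the ratio are therefore not independent evidence.

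**Figure D5:**
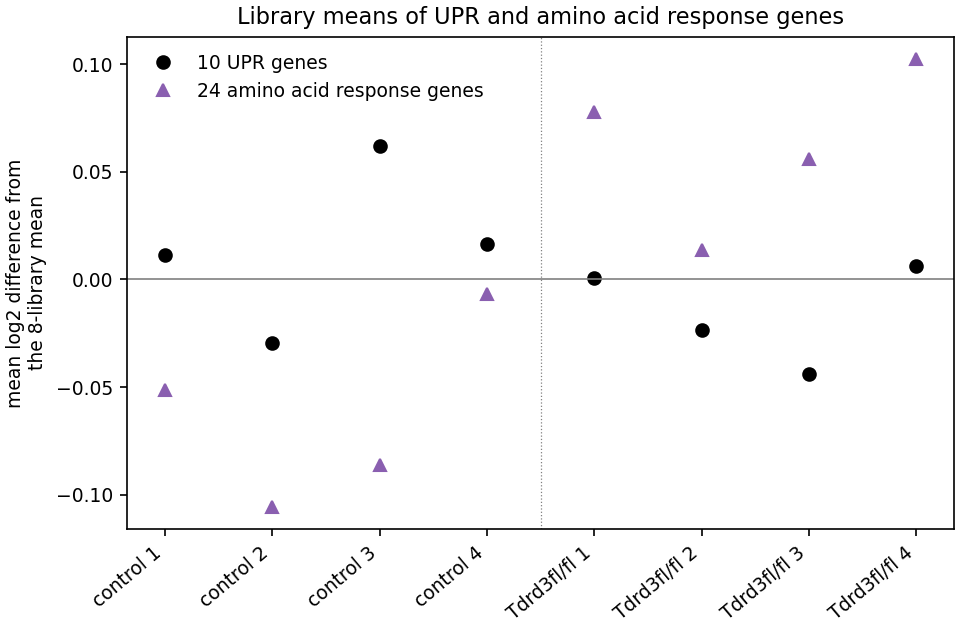
Mean log2 difference of each library from the 8-library mean (y axis) over the 10 unfolded protein response genes (black circles) and over the 24 amino acid response genes (purple triangles), with libraries labelled control on the left and Tdrd3fl/fl/Foxp3YFP-Cre on the right. The triangles run from −0.1055 to −0.0068 on the left and from 0.0139 to 0.1024 on the right, and the circles of the genotypes overlap. The 24 genes were listed with earlier results of these data known, so the split of the triangles is not independent evidence.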

How the data were processed

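Total RNA depleted of ribosomal RNA was sequenced from 4 WT and 4 KO iTreg cultures. The authors aligned reads to GRCm39 with STAR 2.7.8a, quantified genes in Partek Flow by expectation-maximization, so that a read matching more than 1 gene is split, and filtered the counts. The deposited values are those estimated counts, not normalized. The annotation version and whether counting used strand are not given in the sources used here. Of the values 43% were not whole numbers, a share that takes in departures as small as in the lowest *Xbp1* count, 2668.01. Among the 10 genes, clearer departures were counted for *Hspa5* and *Hsp90b1* in all 8 libraries and for *Calr* and *Edem1* in 6. Reads shared with similar sequences may have been divided there. By GENCODE, exons of *Hsp90b1* and *Herpud1* overlap noncoding genes by up to 270 bases.

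Estimated counts were rounded, 594 of 11911 listed genes were left out by filterByExpr (minimum count 10), TMM factors were set (0.993 to 1.00), and edgeR 4.0.16 (R 4.3.3) tested genotype with its two-sided quasi-likelihood test and Benjamini-Hochberg adjustment over 11317 genes. The study's methods used DESeq2, which is an alternative here (DESeq2 1.42.0), as are limma 3.58.1 voom with quality weights, other filters and scalings, a replicate block and leaving out each library. The procedure was tested on simulated data. Intervals are at the 95% level. Samples were grouped by their titles. Promoters and transcript lengths came from the GRCm39 genome and canonical GENCODE vM39 transcripts, with lengths counted inside the deposited gene spans. Figures were drawn with matplotlib 3.10.9.

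The members and lists were chosen with earlier results of these data known. Genes named are the 10 members, *Ern1*, *Eif2ak3*, *Atf6*, *Atf4*, *Ddit3*, *Trib3*, *Chac1* and *Asns*, in each other list the gene of smallest unadjusted p in each direction and every gene of adjusted p below 0.05, the 5 genes most correlated with *Hspa5*, and *Tdrd3* and *Foxp3*. Where the methods' independent mice cannot be matched to all 8 libraries, p-values measure the spread between these libraries, which may be technical.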

Additional observations from a re-analysis of the deposited data

Results flagged for a closer look

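*Pdia4* in Tdrd3fl/fl/Foxp3YFP-Cre replicate 3 had 152 CPM, set apart from the other 3 libraries of that genotype at 158 to 159 CPM by a gap of 0.832 of the whole range. It was the 1 case among 20 groups of 4 values examined (10 genes in each genotype). The value lay inside the control range of 151 to 171 CPM.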

How the results depend on the processing

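In all 15 alternatives the number of unfolded protein response genes with an adjusted p below 0.05 was 0 and the number higher at an unadjusted p below 0.05 was 0. Their median log2 fold change stayed between −0.0431 and −0.0071, and that of the amino acid response genes between 0.0688 and 0.0974. The number lower at an unadjusted p below 0.05, 1 (*Dnajc3*), was 0 with limma voom, 0 with the replicate block and 0 to 1 when a library was left out, and was lost without control replicate 3 or 4 or Tdrd3fl/fl/Foxp3YFP-Cre replicate 2 or 3. Over all tested genes, the 30 with an adjusted p below 0.05 became 81 with the DESeq2 test, 95 with limma voom, 87 with the replicate block and 6 to 162 when a library was left out: 8, 12, 10 and 90 without control replicates 1 to 4 and 6, 162, 19 and 7 without Tdrd3fl/fl/Foxp3YFP-Cre replicates 1 to 4. Log2 fold changes near 0 changed sign. *Sdf2l1* was −0.0001 with DESeq2 size factors, −0.0004 with the replicate block and −0.0427 to 0.0294 when a library was left out, and *Calr* was 0.0071 with limma voom and −0.0477 to 0.0228 when a library was left out. The same ranges were −0.0529 to 0.0165 for *Hsp90b1*, −0.057 to 0.0042 for *Pdia4*, −0.0378 to 0.0215 for *Edem1*, −0.1461 to 0.0243 for *Chac1*, −0.0781 to 0.0266 for *Dnaja1* and −0.1038 to 0.0294 for *Ppp1r15a*. The cause was not tested. Same-numbered libraries share only a number: their deviations from the genotype means correlated at −0.0458 to 0.0691, and 1 of 8 libraries correlated best with their own number. No other member call changed under the replicate block. *Foxp3* passed the adjusted threshold in 4 of 15 alternatives, among them the block (0.0161). Among the 10 genes *Dnajb9* had the fewest counts, 126 to 174 per library. The 3-count floor covers counting error only.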
